A study of Homo sapiens with 36 samples.

Results

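SW1783, a human astrocytoma cell line, was given the lowest of 3 doses of ACD and compared with vehicle. ACD is Aconitum carmichaeli Debeaux, a monkshood used in traditional medicine, of which the study used an extract made with hot water. The members were chosen by their labels: 3 libraries of cells given 20 µg/mL of extract for 24 h (low dose) and 3 libraries of the vehicle group of the same batch, batch B, that is, 6 of the 36 libraries of the series. The labels give the vehicle as 0.1% DMSO for 24 h. Batch A of SW1783 held 3 vehicle libraries and 3 of cells given 10 µM wortmannin for 24 h, and these enter only checks. The same batch held 3 libraries each of SW1783 at 100 µg/mL (medium dose) and 500 µg/mL (high dose). HT29, a human colorectal adenocarcinoma line, was given the same doses and is used here only for comparison with SW1783. SW1783 was kept in Leibovitz's L-15 medium and HT29 in DMEM. The lines also differed in plating density and in CO2, so that line and culture conditions cannot be told apart. The extract is a mixture, and nothing in the labels says which of its compounds reached the cells.

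The 6 libraries held 19514643 to 23025863 counts, and 15293 to 15722 genes had 10 or more counts. Where a gene has no count, up to 3 counts remain possible, and in these libraries that limit was 0.13 to 0.154 CPM (counts scaled to a library total of 1000000). Intervals of this kind cover counting error only. The scatter of counts between libraries, as chi-square per degree of freedom over genes, was 2.06 to 2.31 within the vehicle group, 2.78 to 3.77 within the low dose and 19.5 to 27.7 between low dose and vehicle. Without MT-RNR1 and MT-RNR2 the last was 5.26 to 6.85. Vehicle libraries of batches A and B with the same replicate number had values of 1.53 to 1.64, lower than those of 2.04 to 3.12 for other numbers and lower than within batch B. The labels do not say whether such pairs share cultures or RNA, so that results with the vehicle of batch A are not an independent check. Nothing in the labels says that replicates were separate cultures, so that p-values measure the spread between these samples, which may be technical.

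The labelled origin was checked against marker genes. Of the 10 astroglial markers, AQP4 had no count in any of the 6 libraries, GFAP, the intermediate filament that defines astrocytes, had at most 6 counts, S100B at most 5, ALDH1L1 at most 2 and FABP7 at most 1. GJA1, a gap junction protein, was at 224 to 251 CPM and SOX9, a glial transcription factor, at 67.7 to 73.0 CPM. SLC1A3, a glutamate transporter, was at 26.7 to 35.2 CPM, NES, an intermediate filament of neural progenitors, at 8.41 to 11.2 CPM and SLC1A2 had at most 9 counts. The mesenchymal markers VIM, FN1 and COL1A1 were at 4167 to 4665, 5053 to 5434 and 3003 to 3546 CPM, and S100A4 was at 3.90 to 5.28 CPM. EPCAM had at most 4 counts and KRT20 none, while the epithelial keratins KRT18 and KRT8 were at 182 to 230 and 16.2 to 19.7 CPM. Of the neuronal markers TUBB3 was at 96.0 to 112 CPM and SNAP25 at 26.0 to 36.0 CPM. RBFOX3 had at most 7 counts and GAP43 at most 1. CD68, a macrophage marker, was at 139 to 150 CPM, while AIF1 of the same list had at most 1 count. Of the 10 astroglial markers 4 were thus well above the floor, while the others, GFAP and AQP4 among them, were at or near it, and the name SW1783 is used below without a cell type.

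Mitochondria carry their own small genome. Its heavy strand is copied from a single control region into long transcripts that begin with both ribosomal RNAs, MT-RNR1 and MT-RNR2, and go on through the mRNAs of respiratory chain subunits, which tRNAs separate and from which they are cut. The integrated stress response is the programme by which cells short of amino acids, or with faults in their mitochondria or endoplasmic reticulum (ER), slow translation while the transcription factor ATF4 raises amino acid synthesis, transport and stress genes. The unfolded protein response is its neighbour in the ER, where it raises chaperones and protein disposal.

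DESeq2's Wald test was fitted to the 12 SW1783 libraries of batch B, with Benjamini-Hochberg adjustment over 9283 genes, and a gene is called here when its adjusted p was under 0.05, whatever the size of its change. With the low dose, 306 genes (3.3%) were called, 191 higher (2.06%) and 115 lower (1.24%). The changes were small. The median absolute log2 fold change of the called genes was 0.19, 251 of them had less than 0.3, and the smallest was 0.058, beside a median standard error (SE) of 0.062 over all tested genes. By edgeR's quasi-likelihood test 402 of 15983 genes were called (2.52%), 230 higher (1.44%) and 172 lower (1.08%), among them 271 of the 306. For 305 of the 306 called genes the 3 low-dose libraries lay all above or all below the 3 vehicle libraries. Such separation was also frequent without a call: among the 11262 genes that averaged at least 100 normalized counts over the 6 libraries, 2764 (24.5%) did not overlap, 1470 with the low dose higher (13.1%) and 1294 with it lower (11.5%). Of these 11262 genes, 1984 received no adjusted p, since independent filtering left out genes with a mean under 265 over the 12 libraries. The filter counts the higher doses too, and 174 genes with a lower mean than that in the 6 libraries entered the test in this way, 7 of which were called.

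**Figure D1:**
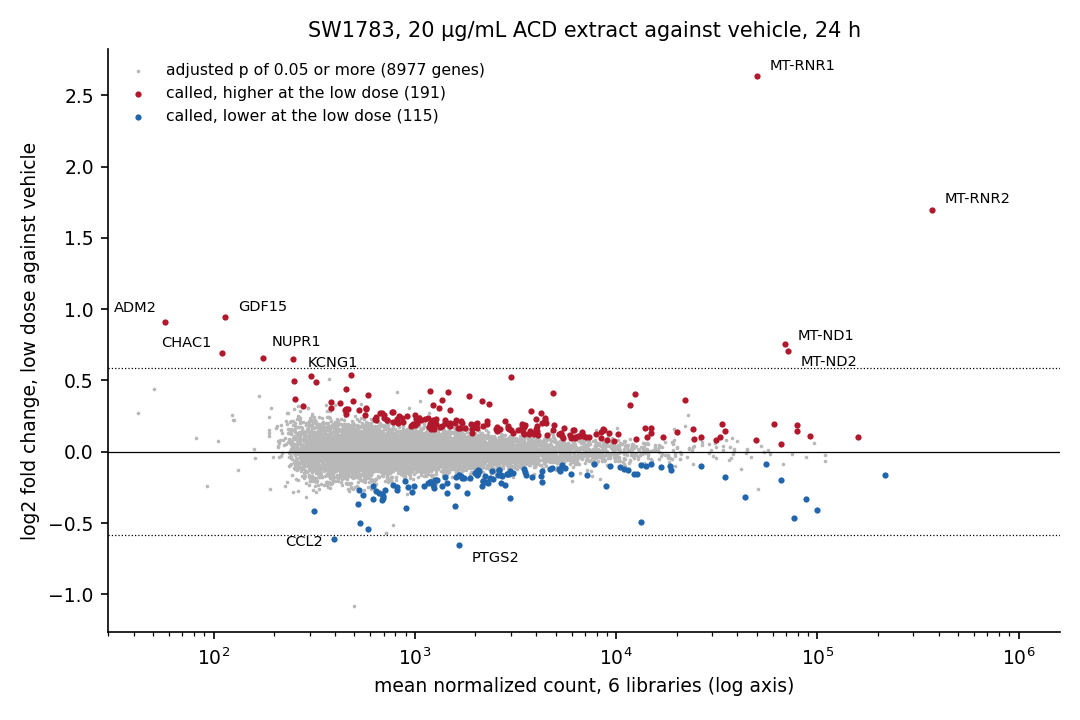
Log2 fold change of the low dose against vehicle (y axis) over the mean normalized count of the 6 libraries (x axis, log scale) for the 9283 tested genes, with dotted lines at a 1.5-fold change and names at the 11 called genes beyond it. Called genes (191 red, 115 blue) lie mostly within 0.3 of 0, and both mitochondrial rRNAs stand far above all other genes tested.

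A change of more than 1.5-fold, the threshold for a differentially expressed gene (DEG) in the study's methods, was reached by 11 of the 306 called genes (0.118% of genes tested). The 9 higher genes (0.097%) were MT-RNR1, MT-RNR2, MT-ND1 and MT-ND2 of the mitochondrial genome, the stress genes GDF15, CHAC1 and NUPR1, the peptide hormone gene ADM2 and the potassium channel subunit gene KCNG1. The 2 lower genes (0.0215%) were PTGS2 and CCL2. Among called genes outside the mitochondrial genome the largest absolute log2 fold change was 0.94. Of the 9, GDF15, CHAC1, NUPR1, ADM2 and KCNG1 had means in the 6 libraries under 265, the filter's limit for the mean over 12 libraries. They were tested through their counts at the higher doses. In a fit on the 6 libraries alone these 5 received no adjusted p, and the 6 DEGs were the 4 mitochondrial genes, PTGS2 and CCL2. The count also depended on single libraries and was 5, 6 and 6 without low-dose replicate 1, 2 and 3.

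Both mitochondrial rRNAs rose most. MT-RNR1, the 12S rRNA of the small mitochondrial ribosomal subunit (chromosome MT, 648 to 1601, plus strand; GENCODE v44 on GRCh38), had 93082, 83661 and 81717 normalized counts at the low dose and 13706, 13488 and 14351 with vehicle. Every low-dose library was far above every vehicle library, with a 6.22-fold higher mean and a log2 fold change of 2.64 ± 0.05 (SE; adjusted p = 1.33e-19 by edgeR's quasi-likelihood test). DESeq2 printed the adjusted p of MT-RNR1 as 0, so that edgeR's is given. MT-RNR2, the 16S rRNA of the large subunit (1671 to 3229), had 603401, 539849 and 558531 normalized counts against 173225, 170589 and 180643, with a log2 fold change of 1.70 ± 0.05 (adjusted p = 1.05e-289 by DESeq2 and 1.82e-16 by edgeR). Its mean was 3.24-fold higher, also without overlap of the groups. As a share of all counts, the 2 rRNAs took 3.33%, 3.01% and 3.10% at the low dose and 0.922%, 0.913% and 0.960% with vehicle. The difference of 2.21 percentage points had p = 0.1 in the exact two-sided permutation test, the smallest that 3 against 3 allows. The 13 mitochondrially encoded mRNAs together took 3.82% ± 0.40 against 4.21% ± 0.11 (SD, n = 3; exact permutation p = 0.3). In bulk RNA a change in the number of cells of a type and a change in the RNA per cell cannot be told apart, here or in any result below. The libraries were made for mRNA and the removal of rRNA was not described, so that these values hold for rRNA molecules that passed the preparation. Other RNAs without a long poly(A) tail were lower in share: replication-dependent histones took 0.00368% of counts at the low dose and 0.00433% with vehicle, and small structural RNAs 0.000424% and 0.00122%, neither with overlapping groups (exact permutation p = 0.1 each, n = 3). Their part in the result was not tested.

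The mRNAs of the mitochondrial genome did not follow the rRNAs as a group: 2 of 13 rose, 7 fell and 4 were not called, with a median log2 fold change of -0.20 beside 0.0055 for all genes tested. The shares called over all genes tested were 2.06% higher and 1.24% lower. MT-ND1 and MT-ND2, complex I subunits and the first mRNAs after the rRNAs on the heavy strand, were the 2 that rose. MT-ND1 (3307 to 4262) had 106805, 72130 and 81658 normalized counts against 50325, 47013 and 57076, a log2 fold change of 0.76 ± 0.14 (adjusted p = 6.51e-06). MT-ND2 (4470 to 5511) had 110040, 71675 and 84680 against 54765, 51588 and 57244, a log2 fold change of 0.70 ± 0.14 (adjusted p = 6.08e-05). The groups of neither gene overlapped, and low-dose replicate 1 was the highest for both. Without that library the log2 fold changes were 0.58 and 0.52, both still called and both under the DEG threshold.

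Farther along the strand the complex IV subunits MT-CO1, MT-CO2 and MT-CO3, the complex I subunits MT-ND4L, MT-ND4 and MT-ND5, and MT-CYB of complex III fell. MT-CO3 (9207 to 9990) had 68861, 59960 and 64054 normalized counts at the low dose and 91404, 87455 and 87873 with vehicle, a log2 fold change of -0.47 ± 0.05 (adjusted p = 1.21e-17). MT-ND4L (10470 to 10766) had 11483, 10441 and 11167 against 15183, 16417 and 14914, a log2 fold change of -0.49 ± 0.07 (adjusted p = 2.17e-10). No low-dose library of either gene reached a vehicle library. The other falls were -0.41 ± 0.09 for MT-ND4, -0.33 ± 0.05 for MT-CO2, -0.32 ± 0.05 for MT-ND5, -0.20 ± 0.06 for MT-CYB and -0.16 ± 0.05 for MT-CO1. MT-ATP8 (-0.15 ± 0.18), MT-ATP6 (-0.26 ± 0.11), MT-ND3 (0.16 ± 0.12) and MT-ND6 (0.048 ± 0.048), the only mRNA of the light strand, were not called. MT-ATP8 with MT-ATP6, MT-ATP6 with MT-CO3, and MT-ND4L with MT-ND4 overlap on the same strand, so that their counts share reads that RSEM divided between them.

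**Figure D2:**
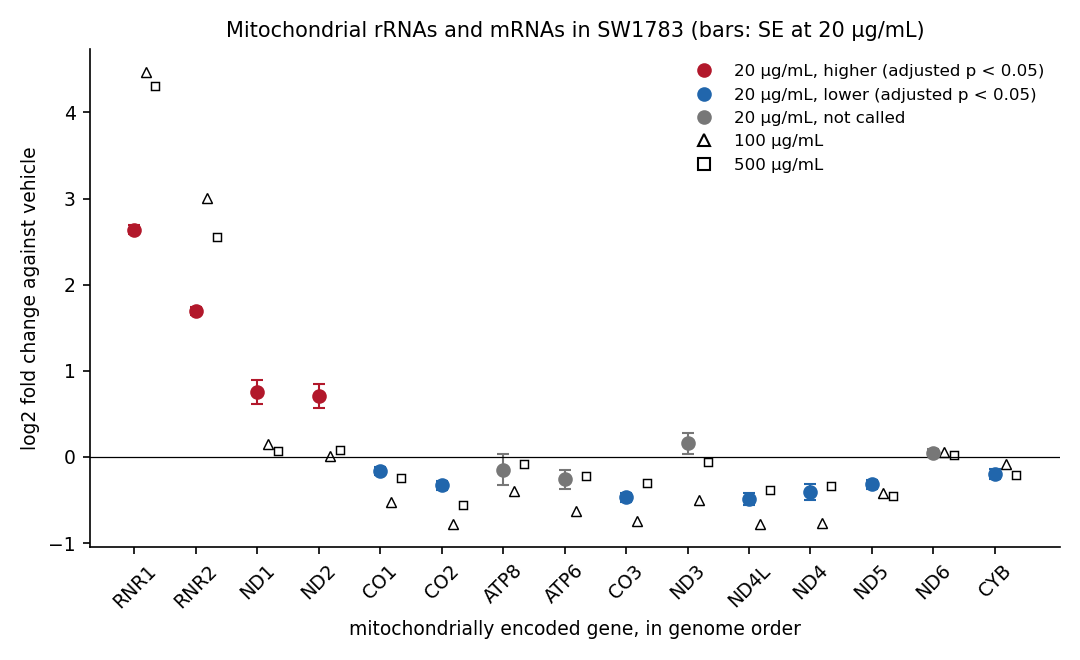
Log2 fold change against vehicle in SW1783 (y axis) of the 2 rRNAs and 13 mRNAs of the mitochondrial genome in genome order (x axis). Filled points with bars of ± SE are 20 µg/mL, triangles 100 µg/mL and squares 500 µg/mL. The first 4 genes are above 0 at 20 µg/mL, from 2.64 for MT-RNR1 to 0.70 for MT-ND2, and the called genes after them lie between -0.16 and -0.49.

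Of the nuclear genes that serve the same organelle, 2 lists had no call. Of 24 tested genes for mitochondrial transcription and RNA processing, among them the polymerase POLRMT and the factor TFAM, none was called, with a median log2 fold change of -0.0048, and of 75 tested nuclear-encoded respiratory chain subunits none was called, with a median of -0.0039. Under DESeq2 1 of the 24 and 6 of the 75 had an unadjusted p under 0.05, beside 1317 of 9283 for all genes tested. By edgeR none of 31 and none of 76 was called. Of all genes 3.3% were called, and nuclear genes of mitochondrial proteins on other lists, HSPA9, SHMT2 and PYCR1, did rise. The nuclear copy of MT-ND2 on chromosome 1, the pseudogene MTND2P28 (629640 to 630683), had a log2 fold change of 0.52 ± 0.13 (adjusted p = 0.00432), which lost its call without vehicle replicate 2. Its sequence resembles the mitochondrial gene, so that reads of both may have been divided between them. Mitochondrial tRNAs had 0 to 0.184 CPM in all and none was tested.

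Genes of the integrated stress response showed small rises. Of its 32 listed genes 31 were tested, of which 16 rose, 1 fell and 14 were not called, where 2.06% of all genes were called higher and 1.24% lower, with a median log2 fold change of 0.22 beside 0.0055 for all genes tested. The list was written with earlier results of these data known, and its count is a description. It was 11 higher in the fit on the 6 libraries alone and 12 to 15 when 1 library was left out. GDF15 (chromosome 19, 18374731 to 18389176, plus strand), a secreted stress cytokine of the TGF-beta family, had 144, 149 and 159 normalized counts at the low dose and 63.5, 84.1 and 86.4 with vehicle, without overlap. Its mean was 1.92-fold higher, with a log2 fold change of 0.94 ± 0.12 (adjusted p = 4.78e-12). CHAC1 (chromosome 15, 40952962 to 40956512, plus strand), an enzyme that breaks down glutathione, had 149, 113 and 143 normalized counts against 88.1, 75.3 and 88.5, a log2 fold change of 0.69 ± 0.14 (adjusted p = 0.000121). NUPR1 (chromosome 16, 28532708 to 28539008, minus strand), a small stress-induced nuclear protein, had 216, 215 and 218 against 128, 133 and 151, a log2 fold change of 0.66 ± 0.11 (adjusted p = 6.98e-07). The 3 low-dose libraries of NUPR1 lay within 3 counts of each other. TRIB3, a pseudokinase that feeds back on ATF4, rose by 0.54 ± 0.07 (adjusted p = 8.37e-14).

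The other members that rose were the regulators ATF4, DDIT3, CEBPG and SESN2, the enzymes ASNS, PSAT1, PHGDH, SHMT2, PYCR1, ALDH1L2 and PCK2 of asparagine, serine, proline, folate and phosphoenolpyruvate metabolism, and the amino acid transporter SLC7A5, with log2 fold changes between 0.20 (CEBPG) and 0.44 (ALDH1L2). SLC38A2, a sodium-coupled amino acid transporter, was the member that fell, with 8380, 8032 and 7987 normalized counts against 9958, 9349 and 9487 and a log2 fold change of -0.24 ± 0.03 (adjusted p = 2.07e-09). ADM2, which encodes the hormone intermedin and stood on no list, had 61.6, 84.7 and 79.5 normalized counts at the low dose and 30.7, 42.9 and 45.8 with vehicle, a log2 fold change of 0.91 ± 0.18 (adjusted p = 0.000108). By edgeR, on the same 12 libraries but with a filter that set no such mean, the adjusted p of GDF15, CHAC1, NUPR1, ADM2 and KCNG1 was 6.81e-05, 0.00254, 0.000177, 0.00361 and 0.000316. ADM2 and CHAC1 received an adjusted p under 5 and 6 of the alternatives, and were called in each.

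Promoters of the list were searched for the core of the C/EBP-ATF response element, the site at which ATF4 and a C/EBP partner are known to bind, spelled TGATGNAA and read on both strands in the 250 bases before the start of transcription. Of the list's genes 26 matched a promoter of the RefSeq table (GRCh38.p14), of which 3 held the motif (11.5%), beside 870 of all 27305 promoters (3.19%). Of the 12 matched genes that rose, 2 held it, ASNS and CHAC1, and of the 14 others 1. Both are printed here 5′ to 3′ on the strand of the gene, since they are the members that rose and held the motif, with the matching bases in capitals. The ASNS promoter is chr7:97872409-97872658 on the minus strand, and its match begins 68 bases before the start. The CHAC1 promoter is chr15:40953221-40953470 on the plus strand, and its match begins 209 bases before the start and reads on the opposite strand. The starts are those of RefSeq, and the windows of CHAC1, GDF15 and TRIB3 lie inside the gene intervals of GENCODE v44. What counts as before the start thus depends on the annotation. A match is a string of letters and not a measured site, and its absence from GDF15, TRIB3 and ATF4 says only that these letters are not in those windows.
ASNS: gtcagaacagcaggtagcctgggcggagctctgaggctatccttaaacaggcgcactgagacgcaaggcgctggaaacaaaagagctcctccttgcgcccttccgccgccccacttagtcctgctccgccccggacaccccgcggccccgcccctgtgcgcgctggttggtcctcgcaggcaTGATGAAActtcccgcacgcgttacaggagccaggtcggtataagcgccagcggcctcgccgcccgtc
CHAC1: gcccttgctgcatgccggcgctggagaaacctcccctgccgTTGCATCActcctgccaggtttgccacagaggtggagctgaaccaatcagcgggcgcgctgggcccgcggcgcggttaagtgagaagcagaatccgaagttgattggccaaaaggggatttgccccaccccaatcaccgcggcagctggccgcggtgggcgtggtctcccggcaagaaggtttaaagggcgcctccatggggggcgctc
ASNS, asparagine synthetase, rose by 0.42 on the log2 scale and CHAC1 by 0.69, while FGF21, the third gene with the motif, was not tested at its low counts.

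Genes of the ER followed with smaller values. All 23 genes of the list of ER chaperones and the unfolded protein response were tested, and 12 rose, none fell and 11 were not called, with a median log2 fold change of 0.097. Of all genes tested 2.06% were called higher and 1.24% lower, and their median was 0.0055. Without vehicle replicate 2 the number of ER genes that rose was 8. HERPUD1, a membrane protein of ER-associated degradation, had 2057, 2248 and 2028 normalized counts at the low dose and 1661, 1573 and 1605 with vehicle, a log2 fold change of 0.39 ± 0.04 (adjusted p = 1.09e-17). HSPA5, the main ER chaperone BiP, rose by 0.19 ± 0.02 from a vehicle mean of 74313 to 84548 normalized counts (adjusted p = 3.83e-14). HSP90B1, the ER member of the HSP90 family, rose by 0.20 ± 0.02 (adjusted p = 4.07e-14) and the transcription factor XBP1 by 0.18 ± 0.05 (adjusted p = 0.0062). CALR, CANX, PDIA3, PDIA4, PDIA6, HYOU1, MANF and SEL1L, chaperones, disulfide isomerases and a degradation factor, also rose, each by less than HSPA5. By edgeR 9 of the 23 were called, and the call of XBP1 was lost without low-dose replicate 1 and without vehicle replicate 2.

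**Figure D3:**
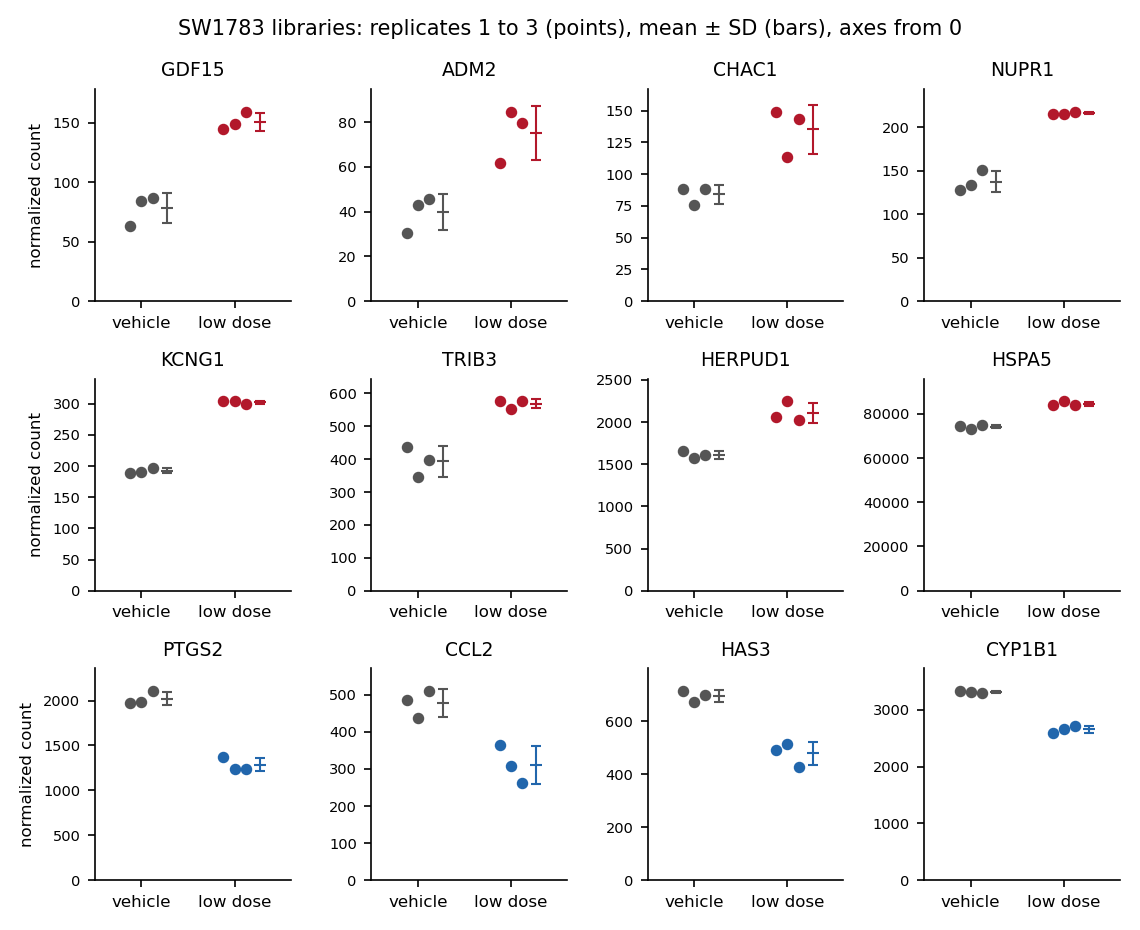
Normalized counts (y axes, from 0) of 12 genes in the 3 vehicle and 3 low-dose libraries of SW1783 (points), with mean ± SD (n = 3) beside them. Of the 12 genes 8 were higher, such as GDF15 with 144 to 159 against 63.5 to 86.4. The other 4 were lower, such as PTGS2 with 1240 to 1370 against 1974 to 2110. The groups do not overlap for any of the 12. Such separation was a condition for naming the largest rises and falls, and 24.5% of genes averaging at least 100 normalized counts had it.

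Of 21 tested heat shock proteins 4 rose and none fell, beside 2.06% of all genes called higher, and the median log2 fold change was 0.072. The count was 2 without low-dose replicate 2 and without low-dose replicate 3. The 4 were HSPA1B (0.20 ± 0.06), HSPA1A (0.17 ± 0.05), HSP90AA1 (0.16 ± 0.03) and the mitochondrial chaperone HSPA9 (0.14 ± 0.03). HSPA1A and HSPA1B are near-identical copies whose reads RSEM divided by a model, their values are uncertain for that reason, and each lost its call under 5 of 14 alternatives. Of the NRF2 targets, genes of the antioxidant response, 1 of 20 rose, the heme oxygenase HMOX1, with 1481, 1472 and 1412 normalized counts against 1177, 1155 and 1198 and a log2 fold change of 0.31 ± 0.05 (adjusted p = 2.70e-07). The median of that list was 0.012.

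Single genes of other lists also changed, where 2.06% of all genes tested were called higher and 1.24% lower. CCN1, a matricellular protein and early response gene, had 5728, 5357 and 5515 normalized counts at the low dose and 4058, 3923 and 4483 with vehicle, a log2 fold change of 0.41 ± 0.04 (adjusted p = 1.88e-18), and with KLF6 (0.22 ± 0.05) it made up the 2 of 16 tested immediate early genes that were called. PLAU, the urokinase that activates plasminogen, fell by 0.29 ± 0.05 (adjusted p = 7.79e-08). KCNG1 (chromosome 20, 51003656 to 51023107, minus strand), a modifying subunit of voltage-gated potassium channels, had 304, 304 and 299 normalized counts against 190, 191 and 197, a log2 fold change of 0.65 ± 0.11 (adjusted p = 7.15e-07). SIK1, a kinase induced by cyclic AMP, had a log2 fold change of 0.53 ± 0.09, and its near-identical copy ENSG00000275993 on the same chromosome, which GENCODE marks as an assembly artifact, one of 0.50 ± 0.10, so that the level of neither is certain. In glycolysis ENO2 (0.23 ± 0.06) and PFKP (0.12 ± 0.03), in calcium signalling the IP3 receptor ITPR3 (0.19 ± 0.04) and the calmodulin CALM3 (0.12 ± 0.04), in the TGF-beta list TAGLN (0.13 ± 0.03), and the adhesion molecule ICAM1 (0.16 ± 0.05) of the NF-kB list were called with values of that size. ICAM1 lost its call under 10 and CALM3 under 7 of 14 alternatives. The glycolysis list had 2 calls among 24 tested genes and a median of 0.0042, and edgeR called 3 of its 28 higher and 1 lower. Its member TXNIP, not called by DESeq2, had a log2 fold change of -1.01 in SW1783, a larger fall than that of PTGS2.

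Among the falls of called genes, which were 1.24% of all genes tested, PTGS2 and CCL2 were largest. PTGS2 (chromosome 1, 186671791 to 186680922, minus strand), the inducible cyclooxygenase COX-2 that starts prostaglandin synthesis, had 1370, 1240 and 1243 normalized counts at the low dose and 1974, 1985 and 2110 with vehicle. Its log2 fold change was -0.65 ± 0.06 (adjusted p = 1.99e-26), between -0.70 and -0.62 under 14 alternatives, and it was the single member called among 8 tested genes of prostaglandin synthesis and reception. CCL2 (chromosome 17, 34255274 to 34257208, plus strand), the chemokine that attracts monocytes, had 364, 308 and 263 against 486, 438 and 511, a log2 fold change of -0.61 ± 0.12 (adjusted p = 2.69e-05). Of 20 chemokines only 3 were tested, and CCL2 was the one called. HAS3, a hyaluronan synthase, had 492, 513 and 428 against 714, 672 and 697, a log2 fold change of -0.54 ± 0.09 (adjusted p = 1.14e-06). The lncRNA ENSG00000263424 on chromosome 18 had 406, 490 and 435 against 719, 586 and 578, a log2 fold change of -0.50 ± 0.11 (adjusted p = 0.000336), which lost its call with the vehicle of batch A. None of these 4 genes had overlapping groups, which was a condition for naming the largest falls. In either direction 24.5% of genes averaging at least 100 normalized counts met it.

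Receptor and matrix genes followed in size. ITGB8, an integrin subunit that activates latent TGF-beta, fell by 0.38 ± 0.07, the growth factor receptor PDGFRA by 0.36 ± 0.09, the secreted WNT modulator SFRP2 by 0.34 ± 0.07 and the heparan sulfate enzyme HS6ST3 by 0.41 ± 0.11. The calls of PDGFRA and HS6ST3 were lost without vehicle replicate 2. Among 22 tested collagens 2 fell, COL12A1 (-0.15 ± 0.03) and COL4A5 (-0.12 ± 0.03), beside 1.24% of all genes called lower. COL4A5 lost its call under 9 of 14 alternatives. The list's median of -0.015 turned positive with the vehicle of batch A (0.03) and without low-dose replicate 3 (0.022).

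The aryl hydrocarbon receptor is a ligand-activated transcription factor for planar aromatic compounds. Its list, which holds the receptor, its partner and its targets, had 3 falls and no rise among 6 tested, beside 1.24% of all genes called lower. The count was 1 without low-dose replicate 3 and 2 without low-dose replicate 2, vehicle replicate 1 or vehicle replicate 3, and TIPARP lost its call under 3 of 13 alternatives. CYP1B1, a cytochrome P450, had 2588, 2659 and 2714 normalized counts against 3333, 3311 and 3299, a log2 fold change of -0.32 ± 0.04 (adjusted p = 1.02e-13). AHRR, the receptor's repressor, fell by 0.39 ± 0.06 (adjusted p = 2.84e-07) and the ADP-ribosyltransferase TIPARP by 0.24 ± 0.07 (adjusted p = 0.0105). The receptor AHR, its partner ARNT and NQO1 were tested and not called.

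Of all genes tested 1.24% were called lower, and the median log2 fold change of all was 0.0055. In cholesterol metabolism 3 of 20 tested genes fell and none rose, with a median log2 fold change of -0.068. The count was 1 without low-dose replicate 1 or 3 and without vehicle replicate 1 or 2, and 8 with the vehicle of batch A. HMGCS1, a synthase early in the pathway, was one of them (-0.24 ± 0.06, adjusted p = 0.00695), and it lost its call under 3 of 13 alternatives. DNA replication had 5 falls and no rise among 30 tested genes and a median of -0.074. Of its 30 values 26 were under 0, beside 4373 of 9283 for all genes tested. The count of falls was 1 without low-dose replicate 3 and without vehicle replicate 1, 3 without low-dose replicate 2 and without vehicle replicates 2 and 3, and 9 with the vehicle of batch A. FEN1, a flap endonuclease (-0.24 ± 0.06), TYMS, thymidylate synthase (-0.18 ± 0.06), RRM2, a ribonucleotide reductase subunit (-0.17 ± 0.04), PCNA, the sliding clamp (-0.16 ± 0.04), and the helicase subunit MCM3 were called, and RRM2 had 3965, 3965 and 3976 normalized counts against 4628, 4426 and 4349. Mitosis and spindle genes had 1 fall among 31, KIF23 (-0.14 ± 0.04), and a median of -0.043. The call of TYMS was lost under 7 of 13 alternatives, that of FEN1 under 2 of 13, that of PCNA under 4 of 14 and that of KIF23 under 10 of 14, whereas RRM2 kept its call under all 14.

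Of the 32 pathway lists 7 had tested members and no call at all, where 2.06% of all genes tested were called higher and 1.24% lower. Besides the 2 nuclear lists of mitochondria these were cytokines of the IL6 and IL1 families (10 tested), metallothioneins (6), collagen processing enzymes (17), interferon-stimulated genes (17) and complement (9), with medians between -0.049 and 0.059. Of these 5 lists' members 1, 1, 4, 0 and 4 had an unadjusted p under 0.05 in DESeq2, beside 1317 of 9283 for all genes tested. By edgeR none of all those members tested was called either. Among 77 cytosolic ribosomal proteins RPL30 (0.13 ± 0.04) was called higher and RPLP0 (-0.13 ± 0.03) lower, neither of them by edgeR, among 14 genes of MHC class I presentation B2M (0.10 ± 0.03) was higher, which edgeR did not call and 6 of 14 alternatives lost, and among 12 of ERK feedback EPHA2 (-0.14 ± 0.04) was lower. Replication-dependent histones and small structural RNAs received no adjusted p in DESeq2. By edgeR none of 17 histones was called, with a median log2 fold change of -0.28, and both small structural RNAs tested were called lower. RN7SL1, an RNA of the signal recognition particle, had 33.7 to 40.8 normalized counts at the low dose and 104, 172 and 63.5 with vehicle, without overlap, a log2 fold change of -1.61 by edgeR (adjusted p = 0.00994). RN7SL2, its near-identical copy, had 40.4, 44.9 and 28.3 against 100, 177 and 43.7, with overlapping groups and a log2 fold change of -1.53 by edgeR (adjusted p = 0.0278), and both values are uncertain for that reason. Of the marker lists, mesenchymal VIM (0.11 ± 0.03) and TAGLN were higher and CD44 (-0.09 ± 0.02) lower, of which edgeR called TAGLN, and neuronal SNAP25 (-0.27 ± 0.09) and epithelial KRT18 (-0.21 ± 0.04) were lower. SNAP25 lost its call under 4 of 10 alternatives. The summed level of the 10 mesenchymal markers was 17866 to 18457 CPM at the low dose and 18806 to 19089 CPM with vehicle, that of the 8 epithelial markers, with EPCAM, CDH1 and CDX2 at or near 0, 202 to 213 and 242 to 251 CPM, and that of the 8 neuronal markers, with RBFOX3 and GAP43 at or near 0, 162 to 176 and 186 to 195 CPM. The part of these shifts in the results above was not tested.

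**Figure D4:**
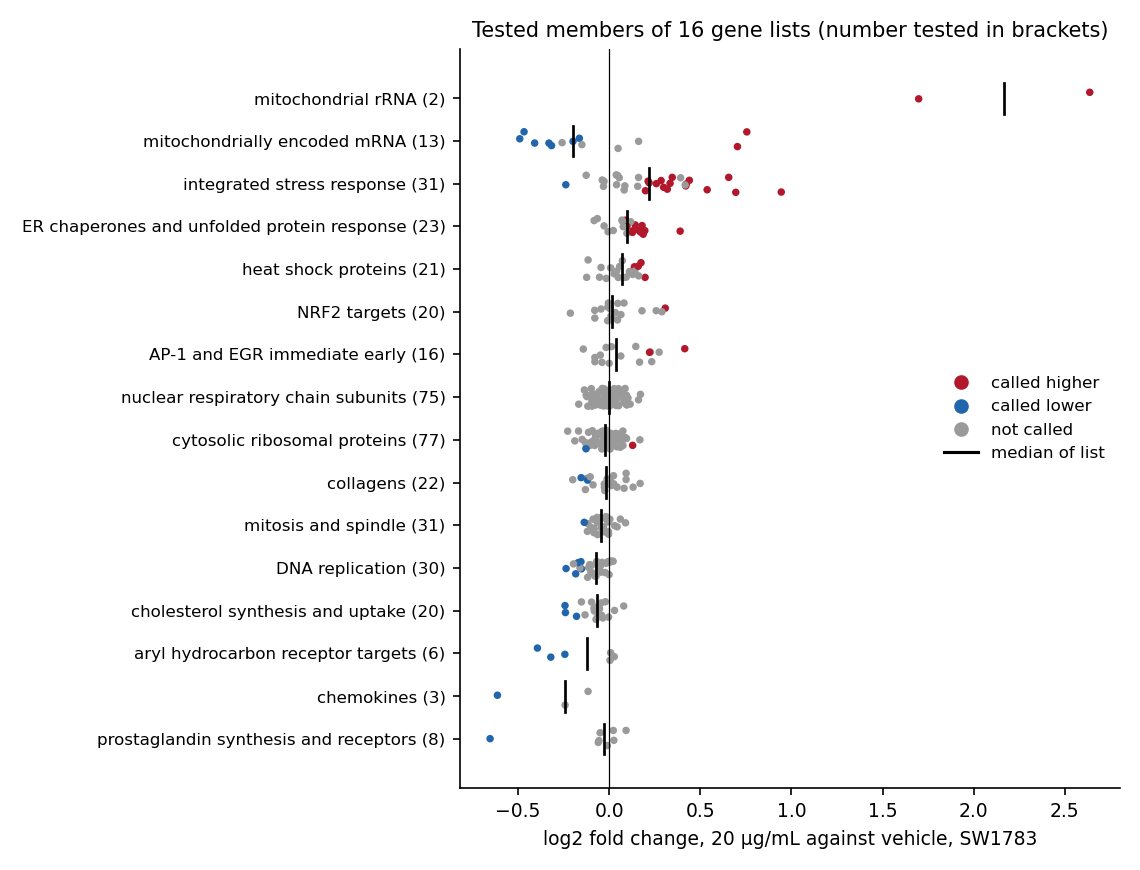
Log2 fold change of the low dose against vehicle (x axis) for each tested member of 16 gene lists (y axis, number tested in brackets), with members called higher in red, called lower in blue and not called in grey, and black bars at the medians. The stress response has 16 of 31 members called higher around a median of 0.22, and DNA replication 5 of 30 called lower around a median of -0.074. The shares called over all genes tested were 2.06% higher and 1.24% lower.

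The low dose was placed on the dose series by testing the medium dose against it, with 2643 of 14395 genes called (18.4%), 1298 higher (9.02%) and 1345 lower (9.34%). This test shares the low-dose libraries, and the comparisons of each dose with vehicle share the vehicle libraries. GDF15 had log2 fold changes against vehicle of 0.94, 3.73 and 6.81 at 20, 100 and 500 µg/mL, and TRIB3 of 0.54, 2.84 and 4.31. Of 31 stress response genes 28 were higher at the medium than at the low dose and 1, ALDH18A1, lower. HSPA5 had 0.19, 0.85 and 1.84, and 18 of 23 genes of the ER list were higher at the medium dose and none lower. In DNA replication 24 of 30 genes were lower at the medium dose and none higher, with RRM2 at -0.17, -0.70 and -1.32. The list medians against vehicle were 0.22, 1.17 and 1.79 for the stress response, 0.097, 0.35 and 0.63 for the ER and -0.074, -0.36 and -0.68 for DNA replication.

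Other genes had another order. MT-ND1 was at 0.76, 0.15 and 0.066 and MT-ND2 at 0.70, 0.012 and 0.077 against vehicle, and both were lower at the medium than at the low dose (log2 fold changes -0.60 and -0.69, adjusted p = 0.000182 and 1.35e-05). MT-RNR1 was at 2.64, 4.47 and 4.30, and both rRNAs together took 7.83% of counts at 100 µg/mL and 5.93% at 500 µg/mL. PTGS2 was lowest at the low dose, with -0.65, -0.41 and 0.32, and rose from the low to the medium dose by 0.24 (adjusted p = 0.000501). HSPA1A had 0.17, -0.35 and -1.30, and 16 of 21 heat shock genes were lower at the medium than at the low dose while HSPA9 and HSF1 were higher. The shares over all genes in that test were 9.34% lower and 9.02% higher. CCL2, with -0.61, -0.92 and -1.21, did not pass the test between medium and low dose (adjusted p = 0.0645).

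The difference between lines was tested as an interaction on 24 libraries, and 115 of 12646 genes (0.909%) had a different low-dose change, 38 more positive in SW1783 (0.3%) and 77 more positive in HT29 (0.609%). With TMM size factors 75 genes were called, of which 53.3% in place of 33.0% were more positive in SW1783. MT-RNR1 and MT-RNR2 had the smallest adjusted p, with log2 fold changes of -0.22 and -0.12 in HT29 that were not called and differences of 2.83 ± 0.10 and 1.80 ± 0.10 (adjusted p = 1.56e-170 and 1.75e-68). Differences larger in size, with larger SE, were those of C3 (-5.54 ± 1.20), RN7SL2 (-5.21 ± 0.72), RN7SL1 (-4.29 ± 0.77) and CYP1A1 (-4.16 ± 0.57). GDF15 was called in both lines, at 0.94 and 0.29, and differed by 0.63 ± 0.14 (adjusted p = 0.00252). TRIB3 differed by 0.50 ± 0.10 (adjusted p = 0.000299) and HERPUD1 by 0.35 ± 0.07 (adjusted p = 0.000458), with 0.011 and 0.017 in HT29.

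Opposite signs were found for aryl hydrocarbon receptor targets and PTGS2. CYP1B1 was at -0.32 in SW1783 and 1.34 in HT29 (difference -1.68 ± 0.16, adjusted p = 3.85e-22), with 2916 ± 722 normalized counts against 1153 ± 97.9 in HT29 (SD, n = 3). TIPARP was at -0.24 and 0.74 (difference -1.01 ± 0.10, adjusted p = 1.39e-19) and PTGS2 at -0.65 and 0.51 (difference -1.18 ± 0.11, adjusted p = 5.87e-23), each called in both lines. AHRR was at -0.39 and, not called, at 0.22 (difference -0.62 ± 0.15, adjusted p = 0.012). Of the 9 genes of the aryl hydrocarbon receptor list tested for the interaction 4 were called, all more positive in HT29, beside 0.609% of all genes tested. The number of genes called in the interaction was 60 to 83 when 1 SW1783 library was left out, 71 without low-dose replicate 1, 65 without low-dose replicate 3 and 60 without vehicle replicate 1, and it was 27 by edgeR.

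**Figure D5:**
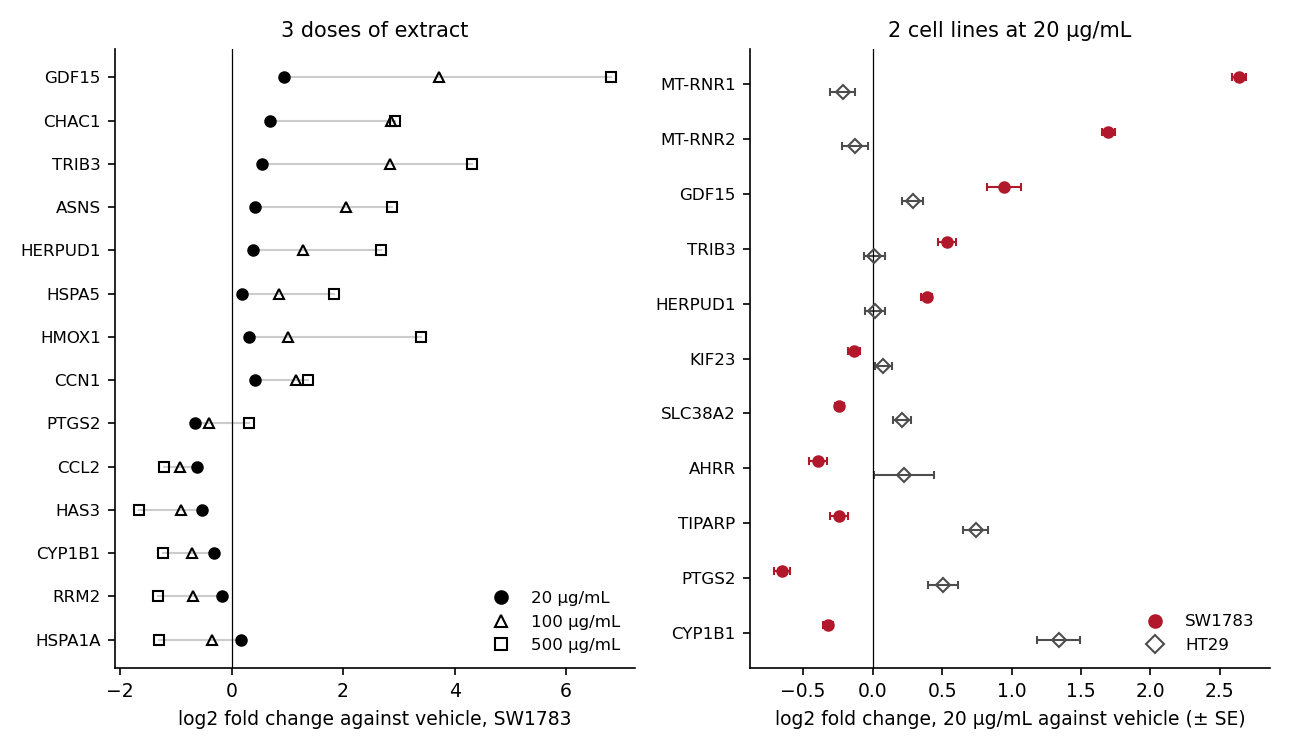
Left, log2 fold change against vehicle (x axis) of 14 genes in SW1783 (y axis) at 20 µg/mL (filled circles), 100 µg/mL (triangles) and 500 µg/mL (squares). Right, log2 fold change ± SE at 20 µg/mL (x axis) of 11 genes with a called interaction in SW1783 (filled circles) and HT29 (diamonds). GDF15 runs from 0.94 to 6.81 while PTGS2 changes sign between 100 and 500 µg/mL, and CYP1B1 is at -0.32 in SW1783 and 1.34 in HT29.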

How the data were processed

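RNA sequencing libraries of 2 cell lines were analysed from the deposited table, in which the authors gave each gene's expected counts from RSEM without normalization. Per the labels and the study's methods, directional mRNA libraries were sequenced as 100 bp paired-end reads, and the submitters' processing notes name FastQC 0.11.9, Trim Galore 0.6.5, STAR 2.7.3a and RSEM 1.3.3. The genome is given as GRCh38 together with hg19, so that positions, from GENCODE v44 on GRCh38, were used in no test. RSEM's strand setting was not given in the sources used here, so that a gene and an antisense partner may share reads.

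Expected counts were rounded to whole numbers (8.84% were not whole). Of 60675 genes 56558 had a symbol, and the others, with 0.142% of counts, kept their identifiers. DESeq2 1.42.0 in R 4.3.3 was run with its two-sided Wald test, the test the study's methods name, and with default size factors and filtering, chosen here, on the 12 SW1783 libraries of batch B, and for the interaction on 24 libraries. Values and calls within HT29 came from a fit on its own 12 libraries of batch B. Values within each line and the differences between lines thus come from separate fits and need not subtract exactly. Genes were called at an adjusted p under 0.05, and DEGs also needed a change over 1.5-fold. Normalized counts are counts divided by size factors. The median SE, which depends on depth and on the scatter between libraries, was 0.07 for genes with a mean count of 100 or more. Scripts were tested on simulated data. Alternatives were edgeR 4.0.16, TMM size factors, filterByExpr, no independent filtering, no mitochondrial genes, fewer libraries, the vehicle of batch A and a replicate block.

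Named genes were all DEGs, the 12 largest rises and falls among called genes with a mean of 100 or more and no overlap, and called members of 32 pathway and 7 marker lists. The members and lists were chosen with earlier results of these data known. Some called genes are not reported here.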

Additional observations from a re-analysis of the deposited data

Results flagged for a closer look

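The count of genes whose low-dose change differed between SW1783 and HT29, 115, stood out because it rests on a test of the difference itself, and the named genes among them are given here with their differences (SW1783 minus HT29, log2 scale). Higher in SW1783 were MT-RNR1 by 2.83, MT-RNR2 by 1.80, GDF15 by 0.63, TRIB3 by 0.50 and HERPUD1 by 0.35.

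Lower in SW1783 than in HT29 were KIF23 with -0.24, SLC38A2 with -0.47, AHRR with -0.62, TIPARP with -1.01, PTGS2 with -1.18, CYP1B1 with -1.68 and the lncRNA ENSG00000263424 with -2.90. In HT29 the lncRNA had 15.4 ± 11.0 normalized counts at the low dose and 3.19 ± 5.53 with vehicle (SD, n = 3), so that its difference rests on few counts there. KIF23 (0.077) and SLC38A2 (0.21) were not called in HT29. With only 3 libraries in a group, no test for a single outlying library was made.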

How the results depend on the processing

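Under the alternatives, 5 to 14 for each gene, the 66 named genes gave 843 values, of which none reversed, 735 stayed on their side of the threshold and 108 lost their call. A further 73 had no adjusted p, and 39 genes kept their call wherever a value was given. Called genes numbered 306 and were 1079 with the vehicle of batch A (270 of the 306 among them). That fit held 18 libraries, with the wortmannin group of batch A among them, and had another dispersion trend. Alternatives added after seeing the data gave 668 with the vehicle of batch B in that fit and 581 with the vehicle of batch A in a fit on 12 libraries (304 and 237 of the 306 among them), so that both choices raised the count. It was 146 to 295 when 1 library was left out, with 146 and 200 without low-dose replicates 3 and 2 and 169 and 155 without vehicle replicates 1 and 2. Without low-dose replicate 3 the share called higher was 73.3% in place of 62.4%. DEGs numbered 11 and were 30 by edgeR, 18 without independent filtering, 17 with the vehicle of batch A, 7 without mitochondrial genes, 6 on the 6 libraries alone and 5 to 12 when 1 library was left out. Interaction calls numbered 115 and were 27 by edgeR, 75 with TMM size factors (53.3% more positive in SW1783, in place of 33.0%), 76 without independent filtering, 191 on the 12 libraries compared and 60 to 83 when 1 library was left out. The difference in the share of mitochondrial rRNA, 2.21 percentage points, was 2.40 with mitochondrial counts left out of the denominator and 2.12 to 2.28 without 1 library. The cause of these shifts was not tested. By edgeR the medium dose against the low dose gave 3808 genes in place of 2643, and low dose against vehicle 402 of 15983 (2.52%).

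Replicate numbers did not pair the samples: deviations of same-numbered low-dose and vehicle libraries correlated at -0.039, -0.072 and -0.12. With a replicate block 264 genes were called, 7 were DEGs, 2123 differed between medium and low dose and 97 had an interaction.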

Other observations

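Some called genes outside the lists were chosen after their values were seen. The nuclear lncRNAs NEAT1 and MALAT1 rose by 0.40 and 0.36 on the log2 scale, the autophagy receptor SQSTM1 by 0.33, the insulin receptor substrate IRS2 by 0.36, the small GTPase RND3 by 0.36 and the ubiquitin ligase subunit FBXO32 by 0.35. PHLDA2, an imprinted gene, had a log2 fold change of 0.49 with 376 normalized counts at the low dose and 268 with vehicle. The tRNA synthetases AARS1 (0.27) and GARS1 (0.23) and the tRNA exporter XPOT (0.23) rose with them, as did the transaminases GPT2 (0.25) and GOT1 (0.22).

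Among the falls outside the lists were the growth factor FGF5 (-0.32), the EGR corepressor NAB2 (-0.30), the transcription factors KLF5 (-0.29) and KLF9 (-0.26), the glutamate transporter SLC1A1 (-0.25), and BRIP1 (-0.24) and ATAD5 (-0.27), both of DNA replication and repair. MALAT1 had the opposite sign in HT29 (-0.82), with a difference of 1.16 between the lines, and its interaction was called.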
